A study of Mus musculus with 19 samples.

Results

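The comparison described here set stimulated wild-type mouse regulatory T cells (Tregs) cultured with pentoxifylline against the same kind of cells cultured with the water diluent. It rests on 4 of the 19 libraries of the series, 2 per condition, chosen by the treatment named in the labels, and on all 14290 genes for which the table of stimulated cells gives library values. All 4 libraries came from YFP-positive cells of the strain C57Bl/6 Foxp3-CRE-YFP, in which the promoter region of Foxp3 drives Cre and a fluorescent protein, with no floxed allele named for these samples. Water and drug cultures alike were stimulated for 16 hours with plate-bound anti-CD3 at 5 ug/mL, soluble anti-CD28 at 1 ug/mL and murine interleukin 2 (IL-2) at 10 ng/mL. Pentoxifylline was present at 500 ug/mL, so that 1 dose and 1 time point were measured and no unstimulated culture was part of this table. The other stimulated group, Tregs with floxed c-Rel alleles (c-Rel F/F) on the same Foxp3-CRE-YFP background and no drug (2 libraries), entered the filter on low values and the estimate of the spread, and are not otherwise compared. WT Tregs sorted without culture as resting (rTreg, 2 libraries, CD44 low) or activated cells (aTreg, 3 libraries, CD44 high) gave independent values for the genes that the drug changed. Sorted rTregs and aTregs labelled as knockouts of p65 or c-Rel entered the filter and the estimate of the spread for these sorted cells. They are not otherwise compared.

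Pentoxifylline is a methylxanthine that inhibits cyclic nucleotide phosphodiesterases, the enzymes that break down cyclic AMP (cAMP). In T cells cAMP activates protein kinase A, which phosphorylates the transcription factor CREB and dampens signalling from the T cell receptor. Engagement of the T cell receptor and CD28, with IL-2, takes a resting T cell into growth: Myc and other factors raise ribosome production, nutrient uptake, biosynthesis and DNA replication, while genes that hold resting lymphocytes in quiescence and guide their recirculation, such as Klf2, are turned down. The question asked of these libraries was which of these programmes differed between drug and water.

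Values are RPKM, read counts scaled by transcript length and library size, as the authors deposited them. Library values are always given in the order replicate 1, replicate 2. Differences are those of group means of log2(RPKM + 0.5), pentoxifylline minus water, on a scale that understates changes of weakly expressed genes. They were tested with limma, two-sided, with Benjamini-Hochberg adjustment over all genes tested, and a gene is called higher or lower at an adjusted p under 0.05. The labels do not say whether replicates came from separate animals or cultures, and the p-values measure only the spread between these samples. Bulk RNA cannot tell fewer cells expressing a gene from less RNA per cell.

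Depth was lower with the drug. From the size of the steps between low RPKM values, an estimated 21.88M and 20.76M reads lay behind the water libraries and 17.35M and 14.92M behind the drug libraries. Between 9585 and 9751 genes reached 1 RPKM in each of the 4 libraries. The cells carried the markers of their label: Foxp3 was 290 and 237 RPKM with water and 218 and 274 RPKM with pentoxifylline, and Cd4, Cd3e, Ctla4, Ikzf2 and Tnfrsf18 all stood above 90 RPKM in all 4 libraries. Of the 7 Treg and T cell markers 6 did not pass the test, the exception being Il2ra. Markers of other cells were low. The 11 B cell markers (3 of them class II genes) summed to between 41.6 and 53.2 RPKM with water and to between 12.95 and 19.9 RPKM with the drug, and 3 of the 5 tested were called lower. The B cell factor Pax5, named after its value was seen, was 0.113 and 0.0797 RPKM with water and listed at 0 in each of the drug libraries. Plasma cell markers summed to at most 20.4 RPKM, CD8 T cell markers to at most 14.2 RPKM, NK cell markers to at most 8.65 RPKM and erythroid markers to at most 0.425 RPKM in any of the 4 libraries. Myeloid markers, most of it Cst3, summed to 86.3 to 137 RPKM with water and 90.3 to 121 RPKM with the drug. Of 12 stress and dissociation genes 1 was called higher and 5 lower. The part of these markers in the results was not tested. Xist, transcribed from the inactive X chromosome, was 0.0153 and 18.7 RPKM with water and 0.00965 and 22.3 RPKM with pentoxifylline, and the Y-linked gene Ddx3y was 27.8 and 2.73 RPKM with water and 39.7 and 6.33 RPKM with the drug. Replicates of the same number were thus alike in these genes across the conditions, and the replicates of a condition were not, so replicates 1 and 2 were not drawn from the same animals.

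Of the 9945 genes that reached 1 RPKM in 2 or more of the 6 stimulated libraries, 4324 were called, which is 43.5% of those tested. Higher with the drug were 1950 genes (19.6%) and lower were 2374 (23.9%). A list of genes has therefore to be read against a background in which nearly 1 gene in 5 rose and more than 1 in 5 fell. The median difference over all genes was 0.00, but falls were larger: 60 genes rose and 249 fell by at least 2 on the log2 scale, which is 4-fold. Of the 748 genes at 100 RPKM or more with water, 93 were higher and 257 lower. No called gene had drug and water libraries that overlapped, but over all tested genes 37.2% lay above and 38.3% below water in both drug libraries. With the p-values of the authors' deposited table, adjusted here, 9.77% of the 14290 genes were higher and 12.9% lower. In that table all 4324 genes had the same sign, and 3012 of them passed an adjusted p under 0.05 in the same direction. Within replicate number 1 and within replicate number 2, the signs of the difference were the same for 85.2% of the tested genes. The genes called higher had a median difference of 0.79 in number 1 and 0.77 in number 2, and those called lower -0.97 and -1.04. The calls were made on these same libraries, so these medians are a description and no separate check. Counts depended on 2 libraries: without water replicate 2 there were 917 genes higher and 1315 lower, and without pentoxifylline replicate 1 there were 925 higher and 1524 lower, with no called gene changing sign. The remaining 4345 genes with values did not pass the filter. Of those that did, 94 passed through the drug libraries alone and 33 through the water libraries alone.

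**Figure D1:**
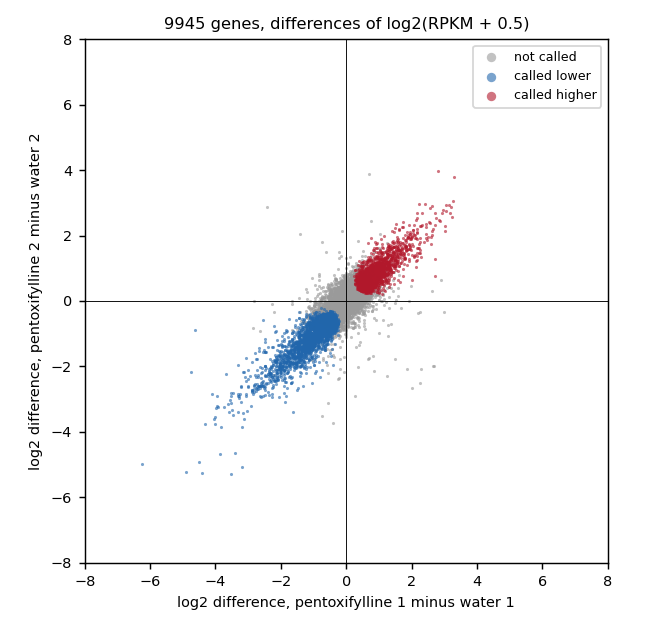
Difference in log2(RPKM + 0.5) between pentoxifylline and water within replicate number 1 (x axis) and within replicate number 2 (y axis), 1 point for each of the 9945 genes tested, red called higher, blue called lower and grey not called. Called genes lie in the upper right and lower left, while grey points around 0 fall in all 4 quadrants. The place of called genes was fixed by the calls, which used these same libraries and included no gene with overlapping libraries.

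Transcript length moved with the difference. Genes were divided into 4 bins of equal size by the length of the longest annotated transcript. The shortest bin (median 1321 bases) had 10.9% called higher and 34.0% called lower, with a median difference of -0.27. The longest bin (median 5953 bases) had 30.5% called higher and 13.3% called lower, with a median of 0.23. The same direction was seen within each replicate number, with medians of -0.23 and -0.34 in the shortest bin and 0.19 and 0.27 in the longest. Between the water libraries, replicate 2 minus replicate 1, the median was 0.19 in the shortest bin and -0.07 in the longest. The part of length in any list's result was not tested, and the length of members is given with some of the lists. In the shortest bin also lay 8 of 12 TNF superfamily ligands, 5 of 7 class II genes, 12 of 14 replication-dependent histone genes and 5 of 5 tested B cell markers.

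**Figure D2:**
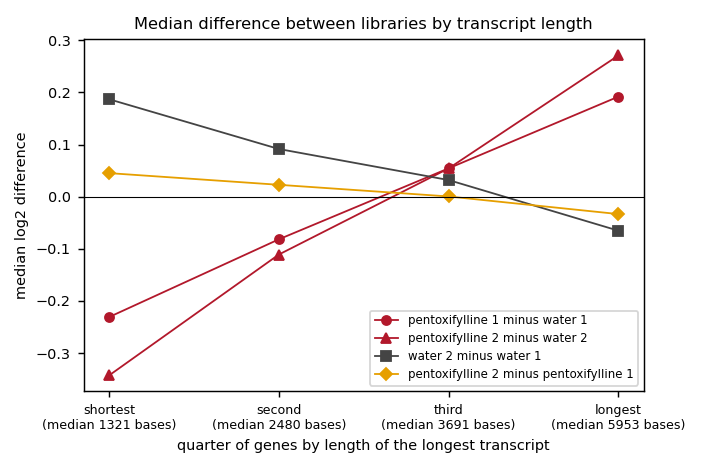
Median difference in log2(RPKM + 0.5) (y axis) for genes in 4 bins of transcript length (x axis), for pentoxifylline minus water in each replicate number (red), water 2 minus water 1 (dark grey) and pentoxifylline 2 minus pentoxifylline 1 (orange). The red lines run from -0.23 and -0.34 in the shortest bin to 0.19 and 0.27 in the longest, and the orange line stays between -0.03 and 0.05.

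Genes that build ribosomes fell as a block. Of 44 tested members of the ribosome biogenesis list (RNA polymerase I, rRNA processing and modification, and assembly factors) 43 were called lower and none higher, with a median difference of -2.08 against 0.00 over all genes. The sum over the list was 2872 and 3740 RPKM at its lowest and highest water library and 981 and 1041 RPKM at its lowest and highest drug library. Rrp12, a factor for the export and maturation of ribosomal subunits (chromosome 19, 41859483 to 41896153, GRCm38), was 28.9 and 42.1 RPKM with water and 1.91 and 4.28 RPKM with pentoxifylline, a difference of -3.38 (SE 0.33, adjusted p = 0.000733) and 11.5-fold lower in means. Grwd1, a nucleolar assembly factor, was 36.4 and 56.6 RPKM with water and 3.48 and 6.17 RPKM with the drug (-3.15, SE 0.30, adjusted p = 0.000687). Polr1b, the second largest subunit of RNA polymerase I, was 29.9 and 40.3 RPKM with water and 2.58 and 4.93 RPKM with the drug (-3.11, SE 0.31, adjusted p = 0.000733). These 3 genes were chosen as the largest falls without overlap between libraries, so their separation was part of the choice. The 1 member not called was Polr1c, a subunit that RNA polymerase I shares with RNA polymerase III, at 52.0 and 67.8 RPKM with water and 51.0 and 38.0 RPKM with the drug (-0.43, adjusted p = 0.126). The count was stable, at 42 or 43 without any of the water or drug libraries and 43 by the authors' deposited p-values, and the members were not short, with a median transcript of 2942 bases.

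Cytosolic ribosomal protein genes, the structural parts of the ribosome, did not follow the factors that assemble it. Of 77 tested, 2 were called higher and 8 lower, with a median of 0.05, although 69 of the 77 lie in the shortest length bin. Rplp1, the best expressed member not called, was 2352 and 3821 RPKM with water and 3163 and 3407 RPKM with the drug. Many of these genes have near-identical processed pseudogenes, so that their reads may be split or dropped. Rpl28 at 18.1 and 16.8 RPKM and Rps27 at 5.02 and 6.12 RPKM with water are examples of values too low to be read as the genes' level, and the calls for single ribosomal protein genes are uncertain for that reason. Without water replicate 2, 3 of the 77 were called lower. Among 81 small nucleolar RNAs, which guide rRNA modification, 30 were called lower and 2 higher, with a median of -0.61. For them the authors' deposited p-values gave no call in either direction, and the median annotated length of 90 bases means that few reads lie behind each value. Snord12, for example, was 31.8 and 45.2 RPKM with water and 7.86 and 8.12 RPKM with the drug (-2.18, SE 0.24, adjusted p = 0.000882). Most of these RNAs lie in introns of other genes, and the labels do not say how reads of overlapping genes were counted.

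Myc itself, the transcription factor best known for driving ribosome production in stimulated lymphocytes, was 157 and 219 RPKM with water and 25.4 and 47.2 RPKM with pentoxifylline (-2.40, SE 0.31, adjusted p = 0.00141). The genes for factors that compete with Myc for its partner Max moved the other way. Mxi1 was 16.9 and 13.1 RPKM with water and 57.8 and 46.1 RPKM with the drug (1.76, SE 0.19, adjusted p = 0.00089). Mxd4 was 36.5 and 38.8 RPKM with water and 90.1 and 90.8 RPKM with the drug (1.25, SE 0.12, adjusted p = 0.000733), and Mxd1 rose by 0.94 (SE 0.14, adjusted p = 0.00219). Max was 65.5 and 72.7 RPKM with water and 65.7 and 55.8 RPKM with the drug and did not pass the test (adjusted p = 0.309). Of the 10 members of this network that were tested, 4 were called higher and 2 lower.

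Myc and Max bind the E-box CACGTG. The letters were searched in promoters from RefSeq (GRCm38.p6, 250 bases before to 50 after each gene's start), which 7568 of the tested genes had; since CACGTG is its own reverse complement, the search covers both strands. It stood in 12.4% of all these promoters, in 11.3% of those of genes called higher and in 15.9% of those of genes called lower. Among genes that fell by at least 2 on the log2 scale it stood in 51 of 195 (26.2%), and in the ribosome biogenesis list in 10 of 39 (25.6%). It was at least as frequent in some lists that did not fall, with 10 of 24 (41.7%) in lysosome and autophagy genes, of which 14 were called higher and 3 lower. The promoters below are those of list members with the letters before the start site, on the gene's strand, and were chosen after the values were seen. They are shown to give the sequence around the motif in genes that fell; whether Myc acts there was not measured. Capitals mark CACGTG, which begins 60 bases before the start in Nop2, 121 in Imp4 and 114 in Nmd3. A match is a description of the sequence and not evidence of binding.
Nop2 (chr6:125131633-125131882, plus strand): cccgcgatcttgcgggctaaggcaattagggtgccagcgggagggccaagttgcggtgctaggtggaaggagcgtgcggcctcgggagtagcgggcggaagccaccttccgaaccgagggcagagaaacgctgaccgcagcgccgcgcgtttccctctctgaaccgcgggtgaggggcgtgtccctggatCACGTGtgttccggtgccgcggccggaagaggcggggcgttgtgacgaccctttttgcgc
Imp4 (chr1:34439579-34439828, plus strand): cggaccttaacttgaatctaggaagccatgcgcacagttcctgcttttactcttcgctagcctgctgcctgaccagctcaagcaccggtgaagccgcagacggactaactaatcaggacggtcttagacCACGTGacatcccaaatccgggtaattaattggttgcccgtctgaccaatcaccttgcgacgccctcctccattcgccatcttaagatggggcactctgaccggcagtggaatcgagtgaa
Nmd3 (chr3:69721805-69722054, plus strand): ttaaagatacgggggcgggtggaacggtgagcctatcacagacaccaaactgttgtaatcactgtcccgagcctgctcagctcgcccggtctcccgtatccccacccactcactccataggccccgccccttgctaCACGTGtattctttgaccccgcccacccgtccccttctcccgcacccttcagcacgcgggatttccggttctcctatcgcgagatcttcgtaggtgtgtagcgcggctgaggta
Nop2, an rRNA methyltransferase, was 66.1 and 89.9 RPKM with water and 14.8 and 18.1 RPKM with the drug (-2.20). Imp4, of the small subunit processome, was 50.02 and 69.1 RPKM with water and 26.5 and 29.6 RPKM with the drug (-1.06). Nmd3, the export adaptor of the large subunit, was 42.5 and 47.2 RPKM with water and 26.4 and 23.1 RPKM with the drug (-0.85). All 3 were called lower, with smaller falls in the last 2.

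The supply of building blocks fell too. Of 19 genes of polyamine and nucleotide synthesis 16 were called lower and 1 higher, with a median of -1.13. Srm, spermidine synthase, was 117 and 197 RPKM with water and 6.81 and 14.0 RPKM with pentoxifylline (-3.89, SE 0.36, adjusted p = 0.000674), 15.1-fold lower in means and the largest fall of the list. Gart, an enzyme of purine synthesis, was 73.9 and 104 RPKM with water and 10.0 and 15.7 RPKM with the drug (-2.76, SE 0.25, adjusted p = 0.000651). Ctps, which makes CTP from UTP, was 28.8 and 39.3 RPKM with water and 4.77 and 5.53 RPKM with the drug (-2.60, SE 0.19, adjusted p = 0.000523). Within the polyamine branch the genes did not move together. Odc1, the ornithine decarboxylase upstream of Srm, was 275 and 330 RPKM with water and 348 and 321 RPKM with the drug (0.15, adjusted p = 0.497), and Sat1, which acetylates polyamines for export, rose by 0.45 (SE 0.13, adjusted p = 0.0246). The Sat1 call was lost without any 1 of the 4 libraries and by the authors' deposited p-values (adjusted p = 0.135).

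Of 25 amino acid genes 11 were called lower and 5 higher. Among the lower calls, Shmt1, the cytosolic enzyme that passes 1-carbon units from serine, was 47.4 and 66.6 RPKM with water and 2.37 and 4.97 RPKM with the drug (-3.84, SE 0.30, adjusted p = 0.000524). Psat1, of serine synthesis, fell by 1.94 (SE 0.22, adjusted p = 0.00107), and Slc1a5, a glutamine carrier, was 153 and 145 RPKM with water and 39.6 and 43.4 RPKM with the drug (-1.84, SE 0.14, adjusted p = 0.000524). Of the 5 called higher, 4 encode transcription factors of the amino acid and stress response, and the other is the carrier gene Slc38a2, named after its call was seen. Ddit3, which encodes CHOP, was 36.4 and 32.9 RPKM with water and 164 and 78.5 RPKM with the drug (1.70, SE 0.33, adjusted p = 0.00598). Atf4 was 187 and 194 RPKM with water and 463 and 259 RPKM with the drug (0.86, SE 0.27, adjusted p = 0.0366), Cebpg rose by 1.00 (SE 0.20, adjusted p = 0.00669) and Atf5 by 0.92 (SE 0.31, adjusted p = 0.0439). The 5 higher calls became 2 without pentoxifylline replicate 1, 2 without water replicate 2 and 3 without water replicate 1. In Ddit3 and Atf4 the first drug library was well above the second, though both exceeded the water libraries. Of 20 tRNA synthetases, which charge tRNAs with amino acids and some of which are ATF4 targets, 14 were called lower and none higher, with a median of -0.85. Farsb was 51.2 and 67.6 RPKM with water and 14.4 and 18.8 RPKM with the drug (-1.81, SE 0.19, adjusted p = 0.000798), and Rars and Vars fell by 1.66 and 1.65. Gars, the best expressed of those not called, was 101 and 124 RPKM with water and 88.8 and 64.9 RPKM with the drug (adjusted p = 0.0765). The count of lower synthetases was 9 without water replicate 2 and 9 without pentoxifylline replicate 2.

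**Figure D3:**
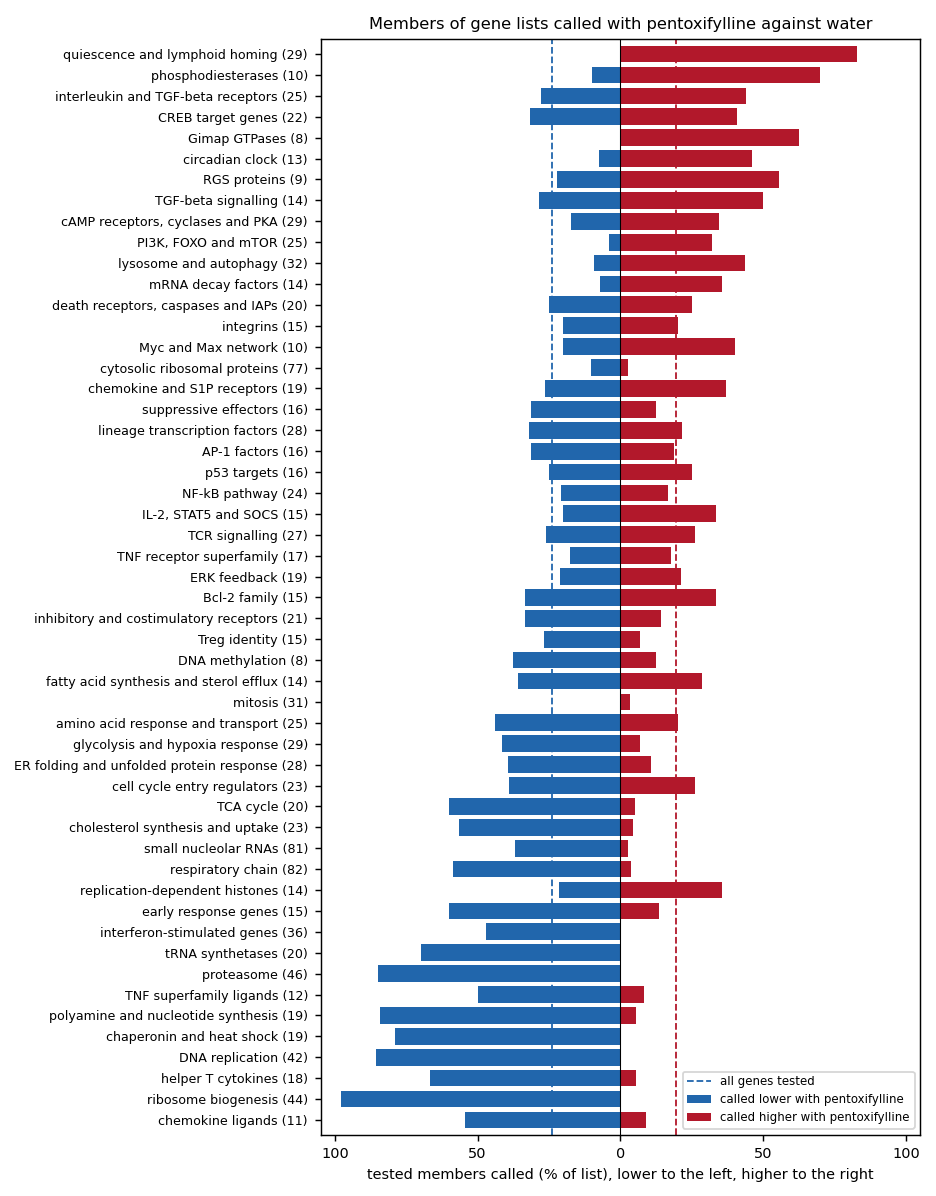
Share of the tested members of each list that were called lower (blue, to the left) or higher (red, to the right) with pentoxifylline, in percent of the members tested (their number in parentheses), for lists with at least 8 tested members, ordered by median difference. Dashed lines mark the share over all genes tested, 23.9% lower and 19.6% higher. Ribosome biogenesis, with 43 of 44 lower, and quiescence, with 24 of 29 higher, stand at opposite ends of the range of shares.

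Protein folding and breakdown genes mostly fell in both arms. In the chaperonin and heat shock list 15 of 19 were called lower and none higher, with a median of -1.30. Of the 19, 2 lay above 0, the larger at 1.76 without a call. The authors' deposited p-values called 2 members of the list higher and 14 lower. Hspd1, the mitochondrial chaperonin HSP60, was 126 and 195 RPKM with water and 26.2 and 32.5 RPKM with the drug (-2.41, SE 0.23, adjusted p = 0.000687). Hsph1, a cytosolic HSP110 chaperone, fell by 2.13 (SE 0.18, adjusted p = 0.000582), and Cct3, a subunit of the ring chaperonin that folds actin and tubulin, was 234 and 334 RPKM with water and 59.5 and 79.6 RPKM with the drug (-2.01, SE 0.23, adjusted p = 0.0011). Of 46 genes matched as proteasome genes 39 were called lower and none higher, with a median of -1.01. Psme3, the nuclear activator PA28 gamma, was 138 and 176 RPKM with water and 39.3 and 51.9 RPKM with the drug (-1.78, SE 0.20, adjusted p = 0.000908), and Psmg1, an assembly chaperone, fell by 1.63 (SE 0.19, adjusted p = 0.00115). The largest fall of this list, -2.11, was that of Psmc3ip, which matched the list's name pattern but is a recombination factor and no proteasome subunit. Psmb1, a core subunit, was 200 and 242 RPKM with water and 200 and 211 RPKM with the drug (adjusted p = 0.63). Of the 46 proteasome genes 31 lie in the shortest length bin, and the count of lower members was 24 without pentoxifylline replicate 1.

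In the endoplasmic reticulum, 11 of 28 genes were called lower and 3 higher, with a median of -0.41. Folding factors fell: Sdf2l1 was 40.5 and 68.7 RPKM with water and 6.34 and 12.0 RPKM with the drug (-2.52, SE 0.32, adjusted p = 0.00147), and Calr, the lectin chaperone calreticulin, was 499 and 684 RPKM with water and 204 and 303 RPKM with the drug (-1.23, SE 0.25, adjusted p = 0.00764). Ern1, which encodes the unfolded protein sensor IRE1, was 4.67 and 3.37 RPKM with water and 18.7 and 9.91 RPKM with the drug (1.66, SE 0.30, adjusted p = 0.0046), and Edem1, which sends misfolded glycoproteins to breakdown, rose by 0.75 (SE 0.13, adjusted p = 0.0042). The list count was 5 lower without pentoxifylline replicate 1 and 7 without water replicate 2.

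Mitochondrial energy genes were lower in number but by less. Of 82 genes of the respiratory chain and ATP synthase 48 were called lower and 3 higher, with a median of -0.65. Atp5g1, which encodes a copy of the ATP synthase c subunit, was 29.3 and 45.9 RPKM with water and 6.44 and 9.66 RPKM with the drug (-2.15, SE 0.25, adjusted p = 0.0011). Ndufaf4, an assembly factor of complex I, fell by 1.86 (SE 0.20, adjusted p = 0.000824), and its subunit Ndufa12 by 1.75 (SE 0.18, adjusted p = 0.000815). Cox7a2l, which helps join respiratory complexes, went the other way, from 117 and 129 RPKM with water to 268 and 251 RPKM with the drug (1.07, SE 0.14, adjusted p = 0.00152). Of the 81 chain genes with a known length, 69 lie in the shortest length bin. The count of lower members was 18 without pentoxifylline replicate 1, 18 without water replicate 2 and 60 without water replicate 1. In the tricarboxylic acid cycle 12 of 20 genes were called lower and 1 higher, with a median of -0.50. Fh1, fumarase, was 51.7 and 77.6 RPKM with water and 19.6 and 23.2 RPKM with the drug (-1.55, SE 0.20, adjusted p = 0.00154), and Idh3a fell by 1.48 (SE 0.15, adjusted p = 0.000733). Here the count was 4 without pentoxifylline replicate 1, 3 without water replicate 2 and 8 without pentoxifylline replicate 2.

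Glycolysis and hypoxia genes gave 12 lower and 2 higher of 29, with a median of -0.39. Hk2, the inducible hexokinase, was 14.8 and 20.3 RPKM with water and 3.75 and 5.67 RPKM with the drug (-1.80, SE 0.22, adjusted p = 0.00134). Hif1a was 235 and 207 RPKM with water and 275 and 300 RPKM with the drug and did not pass the test (0.38, adjusted p = 0.13). Gapdh was listed at 4.34 and 4.35 RPKM with water, far below what this enzyme's transcript reaches in growing cells; it has many processed pseudogenes, and its value and that of Pgk1 (28.0 and 32.6 RPKM with water, called lower) are uncertain. Among carriers of lactate Slc16a3 rose, from 27.1 and 31.1 RPKM with water to 62.6 and 55.4 RPKM with the drug (1.01, SE 0.20, adjusted p = 0.00743). Lipid genes divided as well. Fasn, the fatty acid synthase, was 64.6 and 89.4 RPKM with water and 21.1 and 30.1 RPKM with the drug (-1.58, SE 0.21, adjusted p = 0.00178), and Acaca, which makes its substrate, fell by 1.52 (SE 0.26, adjusted p = 0.00407). Acsl3, a ligase that activates long-chain fatty acids, rose by 1.43 (SE 0.19, adjusted p = 0.00152), and Abcg1, which exports cholesterol, by 0.96 (SE 0.18, adjusted p = 0.00575). Of 23 cholesterol genes 13 were called lower and 1 higher, with a median of -0.60, and 6 were called lower without pentoxifylline replicate 1 and 6 without water replicate 2. Lss, lanosterol synthase, fell by 1.49 (SE 0.24, adjusted p = 0.00311), whereas Srebf2, which encodes the regulator of this pathway, was 131 and 150 RPKM with water and 150 and 148 RPKM with the drug (adjusted p = 0.653).

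**Figure D4:**
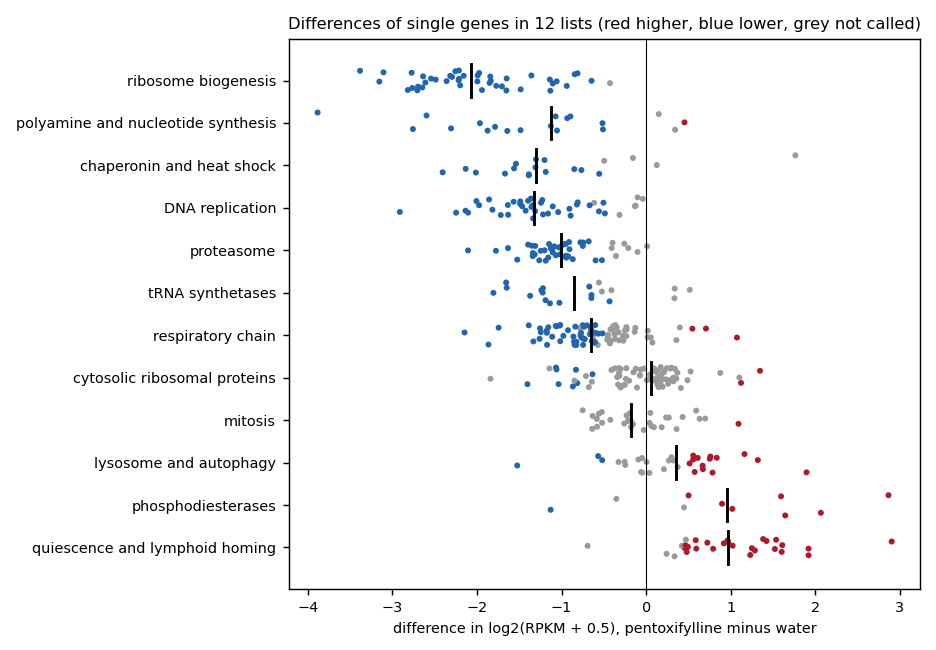
Difference in log2(RPKM + 0.5) between pentoxifylline and water (x axis) for each tested gene of 12 lists (rows), red called higher, blue called lower, grey not called, with the list median as a black line; vertical scatter within a row only separates the points. Medians run from -2.08 in ribosome biogenesis to 0.96 in quiescence, and ribosomal protein and mitosis genes, with medians of 0.05 and -0.18, are mostly grey.

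DNA replication genes fell, while calls among mitosis genes depended on which libraries set the spread. Of 42 replication genes, which cover origin licensing, polymerases, clamp loading and deoxynucleotide supply, 36 were called lower and none higher, with a median of -1.33. Gins1, a subunit of the replicative helicase, was 14.3 and 18.2 RPKM with water and 1.07 and 2.60 RPKM with pentoxifylline (-2.91, SE 0.31, adjusted p = 0.00086). Tyms, thymidylate synthase, was 7.40 and 10.8 RPKM with water and 1.30 and 1.69 RPKM with the drug (-2.25, SE 0.38, adjusted p = 0.00357), and Pcna, the polymerase clamp, was 99.8 and 147 RPKM with water and 42.9 and 46.6 RPKM with the drug (-1.43, SE 0.19, adjusted p = 0.00168). The drug libraries lay below the water libraries in all 3, as in every gene called lower. Without water replicate 2 the count was 23 lower. Of 31 mitosis genes, none was called lower and 1 higher, with a median of -0.18, and the p-values of the authors' deposited table gave 2 lower and 1 higher. This near-absence of calls rested on the c-Rel libraries in the fit: 7 were called lower and 3 higher with only the 4 libraries compared, 7 and 3 without c-Rel replicate 1, and 6 and 3 without c-Rel replicate 2. The replication count was 36 lower in each of these fits. With a replicate block, mitosis calls were 9 lower and 5 higher in the 4 libraries compared, and 1 lower and 1 higher in all 6. The replication count with the block was 37 lower in both. Mki67, which coats mitotic chromosomes, was 21.5 and 17.0 RPKM with water and 25.2 and 21.1 RPKM with the drug (0.27, SE 0.46, adjusted p = 0.67), so that the groups overlapped. Ube2c, the ubiquitin enzyme that starts mitotic exit, was 33.3 and 43.3 RPKM with water and 39.6 and 47.0 RPKM with the drug (0.18, SE 0.50, adjusted p = 0.791). The 1 called member, Ndc80, a kinetochore protein, was 7.29 and 7.09 RPKM with water and 16.8 and 15.0 RPKM with the drug (1.09, SE 0.18, adjusted p = 0.00307). Whether the lists differed from each other was not tested.

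Regulators that open S phase were among those that fell. Of 23 cell cycle entry genes 9 were called lower and 6 higher. Cdk4, the kinase of cyclin D, was 149 and 198 RPKM with water and 46.2 and 52.7 RPKM with the drug (-1.79, SE 0.18, adjusted p = 0.000733), E2f1 fell by 1.73 (SE 0.27, adjusted p = 0.00285) and Ccne1, cyclin E1, was 3.17-fold lower in means (adjusted p = 0.00185). Some inhibitors of the cycle rose. Cdkn1b, which encodes p27, was 89.4 and 55.1 RPKM with water and 237 and 195 RPKM with the drug (1.61, SE 0.26, adjusted p = 0.00298), and Rb1 was 26.6 and 19.2 RPKM with water and 53.002 and 43.9 RPKM with the drug (1.08, SE 0.21, adjusted p = 0.00635). Histone genes with replication-dependent names gave 5 higher and 3 lower of 14, led by Hist1h1c, a linker histone, at 5.80 and 4.25 RPKM with water and 38.0 and 18.9 RPKM with the drug (2.32, SE 0.31, adjusted p = 0.00174). The counts were 3 higher and 5 lower without pentoxifylline replicate 1, 3 and 2 without water replicate 2, 4 and 5 without c-Rel replicate 1, and 2 and 1 by the deposited p-values. Transcripts of such genes mostly lack a poly(A) tail, and 41 of the 55 listed did not reach the filter. Dnmt1, which copies DNA methylation behind the fork, fell by 1.09 (SE 0.15, adjusted p = 0.00193), and its cofactor Uhrf1 by 1.64 (SE 0.30, adjusted p = 0.00488).

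Quiescence and lymphoid homing genes were the largest block that rose. Of 29 tested, 24 were called higher and none lower, with a median of 0.96. The sum over the list was at most 2456 RPKM with water and at least 4688 RPKM with pentoxifylline. Tsc22d3, which encodes the glucocorticoid-induced leucine zipper GILZ (chromosome X, 140539528 to 140600522, GRCm38), was 49.1 and 39.8 RPKM with water and 407 and 273 RPKM with the drug (2.90, SE 0.24, adjusted p = 0.000571), 7.66-fold higher in means. Bcl6, a repressor in follicular and memory T cells, was 6.94 and 6.88 RPKM with water and 27.5 and 17.6 RPKM with the drug (3.26-fold higher in means, adjusted p = 0.00463). Pik3ip1, an inhibitor of PI3 kinase, was 13.3 and 10.9 RPKM with water and 42.6 and 30.2 RPKM with the drug (1.54, SE 0.26, adjusted p = 0.00345). Tob1, an antiproliferative deadenylation factor, rose by 1.23 (SE 0.18, adjusted p = 0.00229), Foxo1 by 0.72 (SE 0.13, adjusted p = 0.00424) and Ccr7, the lymph node homing receptor, by 0.97 (SE 0.31, adjusted p = 0.0377). The Ccr7 call was lost without any 1 of the 4 libraries, with differences of 0.794 to 1.145. It was kept by the authors' deposited p-values (adjusted p = 0.00012). Of the 29 genes 14 lie in the longest length bin, and 15 of the 29 were called higher without water replicate 2. Gimap genes, GTPases of resting lymphocytes, gave 5 higher and none lower of 8, with a median of 0.68. Gimap6 was 281 and 257 RPKM with water and 539 and 541 RPKM with the drug (1.00, SE 0.16, adjusted p = 0.00285), and Gimap1 was 183 and 186 RPKM with water and 360 and 378 RPKM with the drug (1.00, SE 0.14, adjusted p = 0.00211). These genes carry short transcripts, 4 of the 8 in the shortest bin. The Gimap count was 3 without pentoxifylline replicate 1, 3 without water replicate 2 and 3 without pentoxifylline replicate 2.

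Neighbouring lists had medians above 0, and their counts stand against 19.6% higher and 23.9% lower over all genes. In the PI3 kinase, FOXO and mTOR list 8 of 25 genes were called higher and 1 lower (32.0% and 4.0%), with a median of 0.37. Of the 25, 18 lie in the longest length bin, where 30.5% of all genes were called higher and 13.3% lower. Phlpp1, a phosphatase that inactivates AKT, was 52.98 and 42.4 RPKM with water and 173 and 133 RPKM with the drug (1.67, SE 0.27, adjusted p = 0.00304), and Akt1 was the 1 gene called lower (-0.74, SE 0.20, adjusted p = 0.0202). Lysosome and autophagy genes gave 14 higher and 3 lower of 32, with a median of 0.35. Map1lc3a, an LC3 protein of autophagosomes, was 5.55 and 4.56 RPKM with water and 27.0 and 14.9 RPKM with the drug (1.90, SE 0.27, adjusted p = 0.00199), and its relative Gabarapl1 rose by 1.32 (SE 0.17, adjusted p = 0.0015). Ctsz, a cathepsin, fell by 1.53 (SE 0.29, adjusted p = 0.00563). Circadian genes gave 6 higher and 1 lower of 13, and 1 higher without pentoxifylline replicate 1, 2 without water replicate 2. The factors of mRNA decay gave 5 higher and 1 lower of 14, with Zfp36l2, which destabilises AU-rich transcripts, at 85.2 and 76.0 RPKM with water and 246 and 183 RPKM with the drug (1.39, SE 0.18, adjusted p = 0.00147). The count of higher lysosome and autophagy genes was 9 without water replicate 1 and 7 without pentoxifylline replicate 1. Of 14 genes of transforming growth factor beta (TGF-beta) signalling 7 were called higher and 4 lower. Tgfbr2, the ligand-binding receptor, was 51.0 and 54.4 RPKM with water and 101 and 121 RPKM with the drug (1.06, SE 0.15, adjusted p = 0.0018), while its partner Tgfbr1 fell by 0.71 (SE 0.17, adjusted p = 0.0123). Smad7 and Tgif1, inhibitors of the pathway, rose by 1.05 (SE 0.17, adjusted p = 0.00297) and 1.04 (SE 0.17, adjusted p = 0.00345), and Itgb8, which activates the latent ligand, fell by 0.74 (SE 0.22, adjusted p = 0.0298). Of these 14 genes 9 lie in the longest length bin. The 4 lower calls became 0 without pentoxifylline replicate 1 and 1 without any 1 of the other 3 libraries of the comparison.

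**Figure D5:**
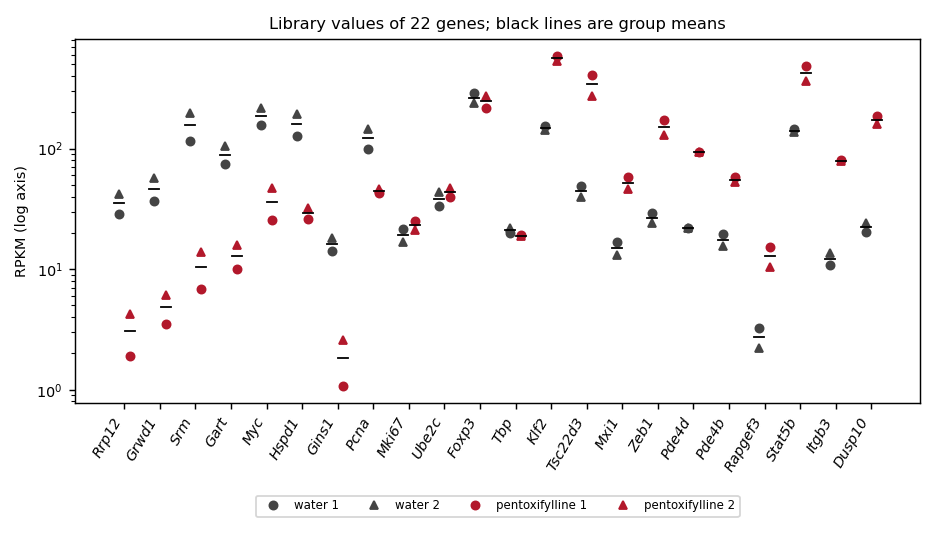
RPKM on a log axis (y axis) of 22 genes (x axis), all but Pde4d named in the text. Water libraries are in dark grey and pentoxifylline libraries in red, with circles for replicate 1 and triangles for replicate 2. Black lines mark the group means. Growth and replication genes on the left lie lower with the drug, Mki67, Ube2c, Foxp3 and Tbp overlap or lie close together, and the genes from Klf2 to Dusp10 lie higher with the drug.

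Genes that break down, raise and sense cAMP changed. Of 10 tested phosphodiesterase genes, the family that the drug inhibits, 7 were called higher and 1 lower, with a median of 0.96. Besides the forms with the largest rises, Pde4b was 19.4 and 15.5 RPKM with water and 58.3 and 52.5 RPKM with pentoxifylline (1.64, SE 0.20, adjusted p = 0.00117), and Pde3b, which degrades cAMP in a manner inhibited by cyclic GMP, was 2.26 and 2.67 RPKM with water and 7.76 and 9.17 RPKM with the drug (1.59, SE 0.44, adjusted p = 0.0234). The Pde3b call was lost without any 1 of the 4 libraries, with differences of 1.48 to 1.71. It was kept by the authors' deposited p-values (adjusted p = 1.06e-08). Pde4a was near the filter, at 1.36 and 1.39 RPKM with water and 0.918 and 1.02 RPKM with the drug, and did not pass the test (adjusted p = 0.289). Receptors, cyclases and effectors of cAMP gave 10 higher and 5 lower of 29, and the direction differed between receptor types. Adora2a, the adenosine receptor that raises cAMP in T cells, was 38.6 and 37.3 RPKM with water and 116 and 71.3 RPKM with the drug (1.25, SE 0.22, adjusted p = 0.00419). The prostaglandin E receptors that raise cAMP fell, Ptger2 by 0.87 (SE 0.14, adjusted p = 0.00286) and Ptger4 by 0.88 (SE 0.16, adjusted p = 0.00475), as did Adcy7, an adenylyl cyclase, by 0.97 (SE 0.19, adjusted p = 0.00613). Rapgef3, which encodes EPAC1, a cAMP sensor other than protein kinase A, was 3.27 and 2.22 RPKM with water and 15.4 and 10.4 RPKM with the drug (2.04, SE 0.26, adjusted p = 0.00152). Prkaca, the catalytic subunit of the kinase, rose by 0.47 (SE 0.12, adjusted p = 0.0205), but did not pass by the authors' deposited p-values (adjusted p = 0.171). Its call was lost without any 1 of the 4 libraries, with differences of 0.43 to 0.50. The 5 lower calls of this list became 3 without water replicate 2, and the 1 lower phosphodiesterase call was lost without any 1 of the 4 libraries.

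Genes listed as CREB targets gave 9 higher and 7 lower of 22, with a median of 0.69. Sik1, a kinase that restrains CREB coactivators, was 21.6 and 24.4 RPKM with water and 92.8 and 62.4 RPKM with the drug (1.71, SE 0.20, adjusted p = 0.00115), and Irs2, an adaptor of insulin signalling, rose by 1.54 (SE 0.24, adjusted p = 0.00273). Dusp1, a phosphatase of MAP kinases, was 43.4 and 42.6 RPKM with water and 116 and 106 RPKM with the drug (1.36, SE 0.16, adjusted p = 0.0012). Per1, a clock gene with CREB sites, was 22.5 and 22.6 RPKM with water and 49.0 and 27.8 RPKM with the drug and missed the threshold (0.70, SE 0.24, adjusted p = 0.05002, and 0.000267 from the authors' deposited p-values). Among the lower calls were immediate early genes that respond to CREB and also to the T cell receptor. Nr4a3 was 59.5 and 84.5 RPKM with water and 26.4 and 33.0 RPKM with the drug (-1.25, SE 0.20, adjusted p = 0.00278). Fosb fell by 1.33 (SE 0.20, adjusted p = 0.00259) and Nr4a2 by 0.64 (SE 0.18, adjusted p = 0.0258). By the authors' deposited p-values Nr4a2 did not pass (adjusted p = 0.0755), and its difference was -0.47 without water replicate 2. RGS genes, which switch off G proteins, gave 5 higher and 2 lower of 9. Rgs1 was 144 and 147 RPKM with water and 317 and 245 RPKM with the drug (0.94, SE 0.26, adjusted p = 0.0225), while Rgs16 was 78.8 and 110 RPKM with water and 16.5 and 19.7 RPKM with the drug (-2.33, SE 0.18, adjusted p = 0.000528). The RGS count of 5 higher became 1 to 3 without any 1 of the 4 libraries of the comparison.

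The full cAMP response element TGACGTCA, a palindrome, stood in 3.90% of the promoters of all tested genes, 4.59% of those called higher and 2.79% of those called lower. Of the 27 called-higher genes of the phosphodiesterase, RGS, CREB target and cAMP lists, 19 had a promoter in the table, and Dusp1 was the 1 gene of these that held it in this window. The shorter site TGACG, searched on both strands and contained in the full element, was common: it stood in 37.6% of all promoters, 40.1% of those of genes called higher and 37.0% of those called lower, and in 14 of 17 of the CREB target list, whose members were listed for known response elements. Promoters of Dusp1 and Rgs2 are shown, on the gene's strand, as members that rose and whose sites lie before the start; those of Rgs2 were chosen after the values were seen. In Dusp1 capitals mark TGACGTCA, and in Rgs2 they mark TGACG or its reverse complement CGTCA.
Dusp1 (chr17:26508473-26508722, minus strand): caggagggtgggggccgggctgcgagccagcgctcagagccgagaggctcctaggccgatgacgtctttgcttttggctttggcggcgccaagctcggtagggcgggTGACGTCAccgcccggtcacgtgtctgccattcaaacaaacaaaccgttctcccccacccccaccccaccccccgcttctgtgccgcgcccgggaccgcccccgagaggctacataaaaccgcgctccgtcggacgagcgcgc
Rgs2 (chr1:144004150-144004399, minus strand): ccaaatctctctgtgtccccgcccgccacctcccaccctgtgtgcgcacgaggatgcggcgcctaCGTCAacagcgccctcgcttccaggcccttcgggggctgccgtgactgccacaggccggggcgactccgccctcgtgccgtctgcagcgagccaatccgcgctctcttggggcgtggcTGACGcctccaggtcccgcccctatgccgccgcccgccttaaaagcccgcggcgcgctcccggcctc
The match in Dusp1 begins 143 bases before the start and the first of the 2 in Rgs2 begins 185 bases before it. Dusp1 thus carried the full element and rose 2.58-fold in means, and Rgs2, which lacks it in this window, rose 9.27-fold, from 27.1 and 22.1 RPKM with water to 267 and 189 RPKM with the drug. These are 2 chosen genes, so their order cannot show whether the letters go with the size of the rise. In the CREB target list the 2 genes with the full element had a median difference of 1.01, against 0.68 without it. Among all genes called higher the medians were 0.69 with it and 0.77 without it. Whether these differ was not tested.

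Counts of proximal T cell receptor signalling genes were near those over all genes. Of 27 tested, 7 were called higher and 7 lower (25.9% each, against 19.6% and 23.9% over all genes), with a median of -0.06. Among those that fell, Lat, the membrane scaffold, was 276 and 342 RPKM with water and 120 and 148 RPKM with pentoxifylline (-1.20, SE 0.19, adjusted p = 0.00273), Lcp2, which encodes SLP-76, fell by 1.25 (SE 0.20, adjusted p = 0.00284), and Ptpn6, which encodes SHP-1, by 1.52 (SE 0.20, adjusted p = 0.00151). Among those that rose, Cblb, a ubiquitin ligase that restrains receptor signalling, was 50.03 and 56.4 RPKM with water and 187 and 171 RPKM with the drug (1.74, SE 0.21, adjusted p = 0.00117), and Dgka, which removes diacylglycerol, rose by 0.86 (SE 0.17, adjusted p = 0.00702). Among MAP kinase phosphatases single genes went either way. Dusp10, which acts on p38 and JNK, was 20.2 and 24.1 RPKM with water and 186 and 159 RPKM with the drug (2.93, SE 0.20, adjusted p = 0.000523), 7.77-fold higher in means. Dusp6, which acts on ERK, was 8.90 and 13.3 RPKM with water and 4.29 and 3.91 RPKM with the drug (-1.31, SE 0.20, adjusted p = 0.00279), and Dusp2 fell by 1.27 (SE 0.20, adjusted p = 0.0029). Without pentoxifylline replicate 1 the proximal list had 3 higher and 3 lower, and without any 1 of the other 3 libraries it had 4 higher. Early response genes gave 9 lower and 2 higher of 15, with a median of -0.72. Genes of ERK feedback, these phosphatases among them, gave 4 higher and 4 lower of 19 (21.1% each), near the shares over all genes.

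Within AP-1 and its relatives 3 of 16 were called higher and 5 lower (18.75% and 31.25%), against 19.6% and 23.9% over all genes. Batf, a partner of IRF4 in effector T cells, was 124 and 154 RPKM with water and 48.6 and 58.9 RPKM with the drug (-1.36, SE 0.30, adjusted p = 0.0101), and Bach2, which opposes it, was 25.0 and 27.2 RPKM with water and 56.2 and 50.9 RPKM with the drug (1.02, SE 0.18, adjusted p = 0.00395). Irf4 fell from 103 and 134 RPKM with water to 21.6 and 34.0 RPKM with the drug (-2.10, SE 0.29, adjusted p = 0.00178). Jun and Junb did not pass the test, with differences of -0.19 and 0.53 (adjusted p = 0.8 and 0.102). In the NF-kB list 4 of 24 were called higher and 5 lower (16.7% and 20.8%), near the shares over all genes, with a median of -0.04. Its inhibitor Nfkbid, which acts in the nucleus, was 53.8 and 57.4 RPKM with water and 20.3 and 17.5 RPKM with the drug (-1.54, SE 0.20, adjusted p = 0.00157). Map3k14, the kinase of the alternative pathway, rose by 0.83 (SE 0.18, adjusted p = 0.0104), and Birc2, which keeps that kinase low, by 0.87 (SE 0.16, adjusted p = 0.00536). Nfkbia was 227 and 244 RPKM with water and 200 and 237 RPKM with the drug and did not pass the test (adjusted p = 0.585). Lineage factors gave 6 higher and 9 lower of 28 (21.4% and 32.1%). Irf8 was 75.9 and 150 RPKM with water and 4.82 and 9.93 RPKM with the drug (-3.85, SE 0.38, adjusted p = 0.000733), Zbtb32, a repressor induced by activation, fell by 3.21 (SE 0.35, adjusted p = 0.000864), and Zeb1, a repressor of the Il2 gene, was 29.2 and 24.1 RPKM with water and 172 and 130 RPKM with the drug (2.47, SE 0.18, adjusted p = 0.000523). Without pentoxifylline replicate 1 the counts of higher and lower members were 2 and 3 for NF-kB, 3 and 3 for AP-1 and 3 and 7 for lineage factors, and without water replicate 2 they were 3 and 3, 3 and 3, and 3 and 8. Il2 itself was low with the drug, at 0.0612 and 0.0711 RPKM against 1.84 and 3.89 RPKM with water (-2.50, SE 0.53, adjusted p = 0.00849).

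Secreted factors fell and their receptors divided. Of 18 helper T cytokines 12 were called lower and 1 higher, with a median of -1.88, and of 11 chemokine ligands 6 were called lower and 1 higher, with a median of -3.57. The 2 exceptions were Il16, which is made as a constitutive precursor, at 49.8 and 50.03 RPKM with water and 63.0 and 73.9 RPKM with the drug (0.45, SE 0.14, adjusted p = 0.0338), and Cxcl10, an interferon-induced chemokine, at 5.44 and 7.66 RPKM with water and 10.6 and 14.1 RPKM with the drug (0.87, SE 0.27, adjusted p = 0.0358). Each exception lost its call without any 1 of the 4 libraries, Il16 also without either c-Rel library, and neither passed by the p-values of the authors' deposited table (adjusted p = 0.225 and 0.178). Ccl5, made by memory T cells, was 6.71 and 13.2 RPKM with water and 14.5 and 13.1 RPKM with the drug (adjusted p = 0.404). Of these 29 genes 23 lie in the shortest length bin. In the TNF superfamily Cd40lg, which licenses B cells and dendritic cells, was 23.3 and 41.0 RPKM with water and 6.09 and 10.99 RPKM with the drug (-1.85, SE 0.39, adjusted p = 0.00836). Tnfsf8, the ligand of CD30, was the 1 of 12 ligands called higher, at 73.5 and 70.7 RPKM with water and 167 and 176 RPKM with the drug (1.24, SE 0.29, adjusted p = 0.0132), and its receptor gene Tnfrsf8 fell from 69.4 and 64.98 RPKM with water to 10.4 and 22.2 RPKM with the drug (-2.10, SE 0.54, adjusted p = 0.0182). The 6 lower ligands became 2 without water replicate 2.

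Cytokine receptors leaned upward, with 11 of 25 called higher and 7 lower and a median of 0.69. Ifngr1, the ligand-binding chain for interferon gamma, was 462 and 381 RPKM with water and 1268 and 1196 RPKM with the drug (1.55, SE 0.21, adjusted p = 0.00163). Il7r, the survival receptor of resting T cells, was 42.2 and 23.2 RPKM with water and 89.1 and 66.3 RPKM with the drug (1.28, SE 0.34, adjusted p = 0.0197). By the authors' deposited p-values Il7r did not pass (adjusted p = 0.111), and its difference was 0.86 without water replicate 2. Receptors of inflammatory cytokines were among those that fell: Il12rb1, shared by the receptors of IL-12 and IL-23, was 50.9 and 76.1 RPKM with water and 6.48 and 11.2 RPKM with the drug (-2.80, SE 0.27, adjusted p = 0.000728), and Il1r2, the decoy receptor of IL-1, was 114 and 121 RPKM with water and 21.2 and 45.1 RPKM with the drug (-1.91, SE 0.44, adjusted p = 0.0121). Il18rap, a chain of the IL-18 receptor, rose by 1.24 (SE 0.40, adjusted p = 0.0386). Its call was lost without any 1 of the 4 libraries, with differences of 1.08 to 1.40, and kept by the authors' deposited p-values (adjusted p = 0.000987). The count of higher receptors was 7 without water replicate 2. Among 19 chemokine and S1P receptors 7 were called higher and 5 lower. Ccr2 was 20.7 and 11.1 RPKM with water and 40.01 and 35.2 RPKM with the drug (1.28, SE 0.29, adjusted p = 0.0107). It did not pass by the authors' deposited p-values (adjusted p = 0.137). Ccr8, a receptor of activated tissue Tregs, was 205 and 351 RPKM with water and 83.7 and 110 RPKM with the drug (-1.48, SE 0.32, adjusted p = 0.00938), and Cxcr5, which leads cells into follicles, fell by 1.32 (SE 0.20, adjusted p = 0.00243). The calls were 3 higher and 1 lower without pentoxifylline replicate 1, 4 and 1 without water replicate 2, 5 and 3 without water replicate 1, and 4 and 7 without pentoxifylline replicate 2. Itgb3, the integrin beta 3 chain, stood out among adhesion genes, at 10.8 and 13.7 RPKM with water and 79.8 and 79.0 RPKM with the drug (2.66, SE 0.17, adjusted p = 0.000523). Of the 15 integrins tested 9 were not called, 3 were higher and 3 lower (20.0% each), near the shares over all genes.

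Counts of Treg identity genes were near or below those over all genes. Of 15 tested, 1 was called higher (6.67%) and 4 lower (26.7%), against 19.6% and 23.9% over all genes. Among the 10 not called were Ikzf2, at 117 and 101 RPKM with water and 91.9 and 111 RPKM with the drug (adjusted p = 0.785), and Tnfrsf18, at 657 and 886 RPKM with water and 603 and 811 RPKM with the drug (adjusted p = 0.757). Il2ra, which encodes CD25, fell from 850 and 842 RPKM with water to 313 and 451 RPKM with the drug (-1.17, SE 0.31, adjusted p = 0.0212), and Itgae, which encodes CD103, by 0.95 (SE 0.31, adjusted p = 0.0434). Lrrc32, which encodes GARP, the protein that holds latent TGF-beta on the surface of stimulated Tregs, was 302 and 310 RPKM with water and 613 and 548 RPKM with the drug (0.92, SE 0.28, adjusted p = 0.0334). The 4 lower identity genes became 1 without pentoxifylline replicate 1, 1 without water replicate 2 and 2 without water replicate 1, and 7 by the authors' deposited p-values. Downstream of CD25, Jak3 fell by 1.07 (SE 0.16, adjusted p = 0.00224), while Stat5b was 145 and 137 RPKM with water and 487 and 364 RPKM with the drug (1.58, SE 0.18, adjusted p = 0.000988) and Jak1 rose by 0.70 (SE 0.13, adjusted p = 0.00592). Suppressive effectors gave 2 higher and 5 lower of 16 (12.5% and 31.25%). Ctla4 was 613 and 486 RPKM with water and 582 and 551 RPKM with the drug (0.05, adjusted p = 0.881), Tgfb1 was 196 and 213 RPKM with water and 190 and 224 RPKM with the drug (0.01, adjusted p = 0.965), and Tigit was 476 and 471 RPKM with water and 458 and 458 RPKM with the drug (-0.05, adjusted p = 0.911). Gzmb, the cytotoxic protease, fell from 171 and 214 RPKM with water to 94.4 and 98.9 RPKM with the drug (-0.98, SE 0.33, adjusted p = 0.0487). The 5 lower effector calls became 2 or 3 without any 1 of the 4 libraries, and the 2 higher calls 0 or 1. Among inhibitory and costimulatory receptors 3 of 21 were called higher and 7 lower (14.3% and 33.3%). Pdcd1, which encodes PD-1, was 123 and 169 RPKM with water and 270 and 393 RPKM with the drug (1.17, SE 0.30, adjusted p = 0.0184) and Havcr2, which encodes TIM-3, rose by 0.93 (SE 0.17, adjusted p = 0.0046), while Btla fell by 1.41 (SE 0.26, adjusted p = 0.00548) and Cd160 by 2.76 (SE 0.32, adjusted p = 0.00112).

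Cell death genes did not move as 1 group. In the Bcl-2 family 5 of 15 were called higher and 5 lower. The BH3-only genes Pmaip1 (NOXA), Bcl2l11 (BIM) and Bbc3 (PUMA), which start mitochondrial apoptosis, rose by 1.64 (SE 0.32, adjusted p = 0.00635), 1.58 (SE 0.23, adjusted p = 0.00213) and 1.53 (SE 0.39, adjusted p = 0.017). Bcl2l11 was 43.5 and 47.8 RPKM with water and 140 and 135 RPKM with the drug. Bax, the pore-forming effector, was 118 and 126 RPKM with water and 67.2 and 59.2 RPKM with the drug (-0.94, SE 0.14, adjusted p = 0.00254), and Bcl2a1b and Bcl2a1d, prosurvival genes and near-identical copies whose reads may be split, were called lower. Mcl1 was 206 and 196 RPKM with water and 227 and 264 RPKM with the drug (adjusted p = 0.196). Casp9 rose by 1.28 (SE 0.14, adjusted p = 0.000957) and Apaf1, its platform, by 1.12 (SE 0.16, adjusted p = 0.0022), while Ripk3, of necroptosis, fell by 1.31 (SE 0.17, adjusted p = 0.00146). Of 16 p53 targets 4 were called higher and 4 lower (25.0% each), near the 19.6% and 23.9% over all genes. Gadd45a was 6.98 and 4.96 RPKM with water and 33.1 and 31.2 RPKM with the drug (2.35, SE 0.26, adjusted p = 0.000915). Aen, a nuclease gene, was 25.1 and 30.7 RPKM with water and 5.91 and 5.95 RPKM with the drug (-2.14, SE 0.15, adjusted p = 0.000523). The Bcl-2 family gave 3 higher and 3 lower without pentoxifylline replicate 1 and the same counts without water replicate 2. The p53 targets called higher numbered 1 without either of these libraries and 2 without pentoxifylline replicate 2.

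Interferon-stimulated genes were lower, with 17 of 36 called lower and none higher and a median of -0.73. Among those that fell were GTPases induced by interferon gamma. Iigp1 was 90.3 and 88.0 RPKM with water and 2.88 and 19.3 RPKM with pentoxifylline (-3.45, SE 0.68, adjusted p = 0.00669), and Irgm1 was 80.4 and 111 RPKM with water and 11.3 and 32.2 RPKM with the drug (-2.27, SE 0.42, adjusted p = 0.00528). Ly6a, which encodes SCA-1, fell by 2.41 (SE 0.25, adjusted p = 0.000777). In the 2 GTPases the drug libraries differed several-fold from each other while both lay below water. Tap1, a peptide transporter, was 192 and 227 RPKM with water and 175 and 179 RPKM with the drug (adjusted p = 0.235). The count was 10 without pentoxifylline replicate 1 and 7 without water replicate 2. Class II antigen presentation genes gave 4 lower and none higher of 7, and 1 lower without water replicate 2. Among them H2-Aa was 13.6 and 17.6 RPKM with water and 6.36 and 2.70 RPKM with the drug (-1.77, SE 0.34, adjusted p = 0.00639). Of the B cell markers outside class II, named after their values were seen, Cd79a was 1.62 and 1.20 RPKM with water and 1.82 and 1.62 RPKM with the drug, and Ms4a1 was 0.289 and 0.281 RPKM with water and 0.168 and 0.0652 RPKM with the drug. Cd79b, also outside class II, differed by -0.77 and was not called. It was called lower with a replicate block in the 6 libraries (limma adjusted p = 0.0275), but not by the authors' deposited p-values (adjusted p = 0.263). Of the 5 B cell markers tested, class II genes included, 4 lay below 0 and 3 were called lower. The part of B cell markers in the class II result was not tested.

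Beyond the lists, the largest falls included Angptl2, a secreted angiopoietin-like protein, at 27.4 and 34.8 RPKM with water and 0.887 and 2.12 RPKM with the drug (-4.04, SE 0.36, adjusted p = 0.000646). Nkg7, a protein of cytotoxic granules, fell from 31.7 and 50.2 RPKM with water to 1.49 and 3.87 RPKM with the drug (-3.78, SE 0.60, adjusted p = 0.00298), and Hivep3, a zinc finger protein that binds kappaB-like sites, from 40.9 and 45.8 RPKM to 2.10 and 4.30 RPKM (-3.63, SE 0.28, adjusted p = 0.000524). Others belonged by function to growth and replication: Nme1, a nucleoside diphosphate kinase (-3.48), Dctd, dCMP deaminase (-3.59), Ung, which removes uracil from DNA (-3.52), and Mettl1, a tRNA methyltransferase (-3.42). Nme1 was 148 and 252 RPKM with water and 12.8 and 22.03 RPKM with the drug. Rises outside the lists were led by Pou6f1, a POU-domain factor, at 9.48 and 7.22 RPKM with water and 82.6 and 58.9 RPKM with the drug (3.00, SE 0.21, adjusted p = 0.000523). Foxj1, a forkhead factor that restrains T cell activation, was 1.54 and 1.72 RPKM with water and 12.0 and 16.0 RPKM with the drug (2.75, SE 0.35, adjusted p = 0.00145), and Trf, which encodes transferrin, was 4.35 and 4.75 RPKM with water and 32.1 and 29.9 RPKM with the drug (2.64, SE 0.51, adjusted p = 0.00615). Tbp, a general transcription factor, was 20.1 and 21.9 RPKM with water and 19.1 and 18.8 RPKM with the drug (adjusted p = 0.376).

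The genes that the drug changed were then read in WT Tregs sorted without culture, which shared no library with the comparison. The filter, the spread and so the adjusted p-values rested on all 13 sorted libraries, the p65 and c-Rel knockouts included. In that table, whose values had been adjusted by the authors in a way the headers do not describe, 803 of 10656 genes (7.54%) were higher and 499 (4.68%) lower in aTregs than in rTregs. Of the 1827 drug-raised genes in that fit, 5.64% were higher and 6.40% lower in aTregs, with a median difference of -0.03. Of the 2249 drug-lowered genes, 6.80% were higher and 5.69% lower, with a median of -0.14. Without aTreg replicate 3 this balance turned, to 229 higher and 342 lower against 153 and 128. Genes not called with the drug had 8.33% higher and 3.63% lower. Across 9284 genes, which are not independent replicates, the difference with the drug and that between aTregs and rTregs had Pearson's r of -0.01 and Spearman's rho of 0.05, given as a description. Single programmes differed in this respect. Quiescence genes, with a median of 0.96 with the drug, had a median of -0.57 in aTregs against rTregs, and 12 cytokine genes in the fit, with a median of -1.88 with the drug over 18, had 0.34. Ribosome biogenesis genes had -2.08 with the drug and -0.36 in aTregs, so both comparisons lay below 0. Mitosis genes had -0.18 with the drug and 1.35 in aTregs. Klf2 was lower in aTregs by 1.39 on the log2 scale (limma adjusted p = 0.0445) and Ccr7 by 1.62 (adjusted p = 0.0414), both of which rose with the drug. Rgs16, Ccr8, Il1r2 and Zbtb32, which fell with the drug, were higher in aTregs by 1.94, 2.81, 3.83 and 1.88 (adjusted p = 0.00868, 0.0079, 0.00881 and 0.00655). Pdcd1 was higher in both, by 1.17 with the drug and by 2.64 in aTregs (adjusted p = 0.00559).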

How the data were processed

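RNA was sequenced after TruSeq library preparation, per the labels' protocols; STAR, mm10 and DESeq2 1.10.1 are named in the submitters' processing notes. The table of stimulated cells holds RPKM per library, and per comparison a log2 fold change with its p-value, as the authors deposited them; decimal commas were read as points. The table lists 14310 genes, of which 20 had no values. Of 2282 genes with mean RPKM under 0.1, 99.3% showed whole-read steps within 0.02, from which depth was estimated; RPKM were not tested as counts.

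Genes that reached 1 RPKM in 2 or more of 6 libraries were fitted in limma 3.58.1 (R 4.3.3; group means, eBayes with trend) on log2(RPKM + 0.5), with the c-Rel-deficient libraries adding to the filter and the spread. Benjamini-Hochberg adjustment was also applied to the p-values in the deposited table. In the sorted table, 2.53% of values lie below 0 and were set to 0. All 13 sorted libraries, with those of p65 and c-Rel knockouts, entered that fit. The fit was tested on simulated data. Python 3.11.15, pandas 2.3.3, numpy 2.4.6, scipy 1.17.1 and matplotlib 3.10.9 were used.

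The comparison, 53 gene lists and 8 marker lists were chosen with earlier results of these data known, and lists are described by counts and medians without a test. The text names genes from a pool of 343: a fixed set, in each list the 3 largest rises and falls (called, 5 RPKM or more on average in whichever condition was higher, no overlap between libraries) and the best expressed member not called, and the 10 largest rises and falls in no list. Named outside it, after their values were seen, were Nop2, Imp4, Nmd3, Pax5, Slc38a2, Cd79a and Ms4a1. Lengths came from GENCODE vM21 and promoters from RefSeq. Replicate numbers were not used as pairs: deviations of same-numbered water and drug libraries correlated at 0.40, but there are 2 pairs and the labels name no shared origin. Alternatives covered the pseudocount, filter, scaling, variance, block and left-out libraries.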

Additional observations from a re-analysis of the deposited data

How the results depend on the processing

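No alternative reversed a called gene. With all libraries kept, pseudocounts of 0.1 and 1, no filter, a filter of 3 RPKM, median-of-ratios scaling, robust variance, the 4 libraries alone and the authors' deposited p-values gave 1396 to 1984 genes higher and 1849 to 2384 lower, against 1950 and 2374. Leaving out each of the 6 libraries in turn gave 917 to 1903 higher and 1315 to 2379 lower, the lowest without water replicate 2; the lone library of a group was then assumed to vary like the other groups. A replicate block gave 2097 higher and 2498 lower in 6 libraries, and 2729 and 2991 in the 4 compared. The share of higher calls was 37.8% without pentoxifylline replicate 1 and 47.7% with the block in 4 libraries, against 45.1%. Among sorted cells, without aTreg replicate 3 the drug-raised genes numbered 169 higher and 217 lower in aTregs, against 103 and 117, and the drug-lowered genes 229 higher and 342 lower, against 153 and 128, so that their balance turned; the cause was not tested. Low values rest on few reads, most of all in the drug libraries.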
